A study of Sus scrofa with 48 samples.

Results

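The genes described here are CPT1A and 9 others of mitochondrial fatty acid oxidation and its control by PPAR, namely CPT2, SLC25A20, ACADM, ACADVL, HADHA, HADHB, PDK4, ETFDH and PPARA. A spot was assigned to a gene when the gene name in the scanner files was the symbol of that gene, and it was used when it was among the spots that the authors retained. By this rule 9 of the 10 genes were measured, among 10946 genes in all, and 26 of their 41 spots on the array were retained. PPARA had no retained spot. CPT1A was selected on its measured difference between HF and LF pigs in these data, so that difference is given as a description without a test. The other genes were added for their function in the same pathway, with the results for CPT1A known.

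Long-chain fatty acids cannot cross the inner mitochondrial membrane as CoA esters. CPT1A, the liver form of carnitine palmitoyltransferase and the form of many other cells including leukocytes, joins them to carnitine at the outer membrane, SLC25A20 exchanges the acylcarnitine for free carnitine, and CPT2 forms the CoA ester again in the matrix, where the acyl-CoA dehydrogenases and the mitochondrial trifunctional protein shorten the chain step by step. The nuclear receptor PPARA, bound by fatty acids, raises the transcription of many of these genes, and CPT1A and PDK4 are common readouts of its activity.

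Whole blood was collected from 48 castrated male pigs of the French Large White breed at 132 days of age. The pigs came from lines selected in opposite directions on residual feed intake (low RFI and high RFI), the part of feed intake that growth and maintenance do not explain, and within each line 12 pigs ate a diet rich in fat and fiber (HF) and 12 a diet poor in both (LF), freely available in each case. The 4 groups are low RFI LF, low RFI HF, high RFI LF and high RFI HF pigs. The HF diet also held less starch, because oil and straw replaced part of the cereals. Fat, fiber and starch thus differ together between the diets and cannot be told apart. Each pig had 1 single-colour array with 60306 non-control spots.

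CPT1A was read by 6 probes of 60 bases, and 4 of their sequences are shown because they lie in the coding part of the transcript and because 2 of them were left out by the authors. Positions are bases of the pig CPT1A transcript named in the scanner files, without a genome build.
Probe at 120 to 179, left out: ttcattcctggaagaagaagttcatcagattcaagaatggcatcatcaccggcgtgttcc
Probe at 673 to 732, left out: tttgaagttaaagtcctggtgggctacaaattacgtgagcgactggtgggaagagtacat
Probe at 1374 to 1433, retained: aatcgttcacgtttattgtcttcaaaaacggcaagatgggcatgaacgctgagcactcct
Probe at 2273 to 2332, retained: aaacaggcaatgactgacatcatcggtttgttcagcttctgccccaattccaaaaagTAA
The capitals mark the stop codon at the end of the coding sequence. The other 2 retained probes, at 2762 and 4192, lie after it. The GC content was 45% in the first 3 printed probes and 41.7% in the probe that holds the stop codon.

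Every value below is a log2 intensity with the median of the array at 0, and a gene takes the mean of its retained spots in each pig. The array medians lay 5.91 to 16.0 times above the local background, between 40771 and 46727 spots per array were well above background, and no spot was saturated. The 48 arrays lay on 6 slides, with 2 arrays of each group on each slide. For high RFI HF replicate 1 the deposited column repeats the value 2.71 in 37090 of 37113 entries, and this pig was rebuilt from its scanner file. Levels of different genes are not compared, because probes differ in brightness at equal RNA.

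CPT1A expression was higher in HF than in LF pigs in both lines. In low RFI pigs the lowest, median and highest values were -0.15, 0.04 and 0.67 on the LF diet and 0.09, 0.35 and 1.05 on the HF diet. In high RFI pigs they were -0.44, -0.08 and 0.36 on the LF diet and -0.36, 0.23 and 1.48 on the HF diet. The groups overlapped, but 12 of 12 low RFI HF pigs and 11 of 12 high RFI HF pigs were above the median of the LF pigs of their line. Only 2 and 3 HF pigs, respectively, exceeded the highest LF pig of their line.

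The mean CPT1A value in low RFI pigs was 0.11 ± 0.24 (SD, n = 12) on the LF diet and 0.41 ± 0.27 (SD, n = 12) on the HF diet, a difference of 0.29 ± 0.12 (SE) or an FC of 1.23. For high RFI pigs these means were -0.08 ± 0.25 (SD, n = 12) and 0.29 ± 0.43 (SD, n = 12), which is a difference of 0.37 ± 0.12 (SE) or an FC of 1.29. Over both lines the difference was 0.33 ± 0.09 (SE), an FC of 1.26. It was positive on 6 of 6 slides, between 0.17 and 0.58, and also on 6 of 6 slides within each line. Leaving out 1 pig at a time gave 0.23 to 0.34 in low RFI pigs and 0.26 to 0.43 in high RFI pigs. By size, 53 of 10946 genes had a larger difference between the diets in low RFI pigs, 186 in high RFI pigs and 38 over both lines. The slide values, the omissions and these ranks describe the difference for which CPT1A was chosen, and are no independent support for it.

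The diet difference of CPT1A was not shown to depend on the line. The interaction, which subtracts the difference in high RFI pigs from that in low RFI pigs, was -0.08 ± 0.18 (SE), with a 95% interval from -0.43 to 0.28 and an adjusted p = 0.92 by limma's moderated test with Benjamini-Hochberg correction over all genes. At an adjusted p under 0.05 this test called 0% of all genes, and an unadjusted p under 0.05 was reached by 2.33%. On simulated data the interaction test recovered 0% of log2 changes of 0.25 and 48.5% of those of 0.5. In that simulation 200 genes changed by the same amount, with noise independent between genes. Where fewer genes change the correction is stricter, so recovery in the real data can be lower.

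**Figure D1:**
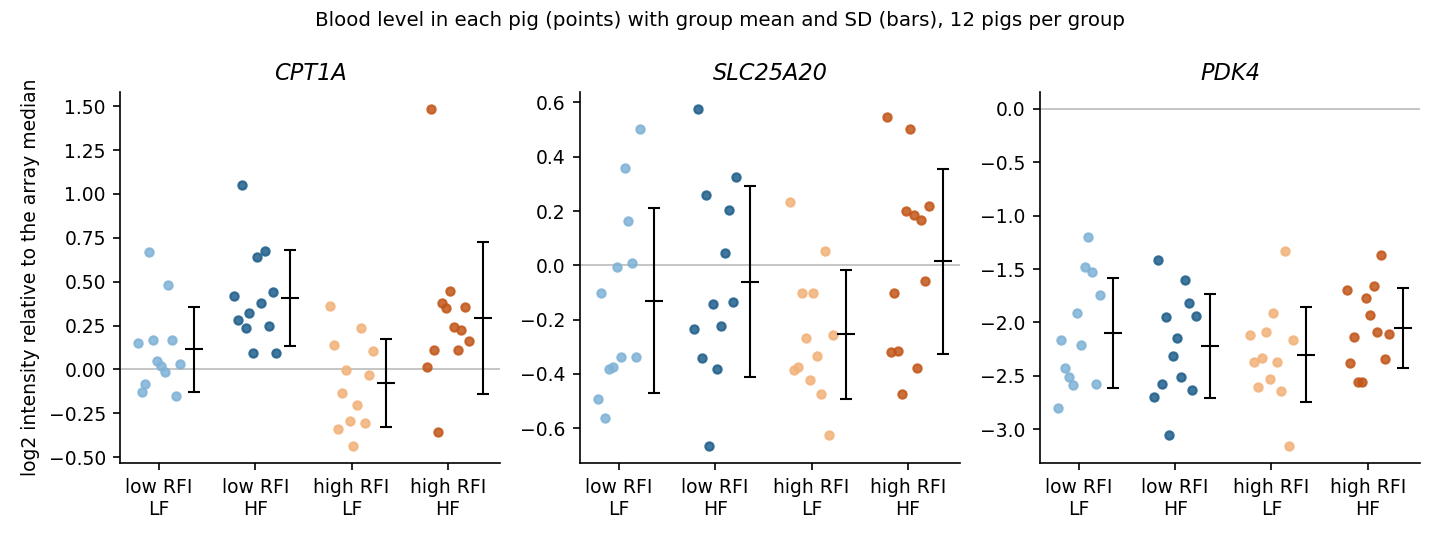
Log2 intensity of CPT1A, SLC25A20 and PDK4, with the array median at 0, in each of the 48 pigs by line and diet. Each point is 1 pig and the lines show the mean and SD of 12 pigs. CPT1A lies higher in HF than in LF pigs of both lines with overlap, and the SLC25A20 and PDK4 groups overlap over most of their range.

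The 6 CPT1A probes differed in the size of the diet difference. The probe at 4192, with a signal 88.9 times its background, was higher in HF pigs by 0.42, and by 0.48 in low RFI and 0.36 in high RFI pigs. The probe at 2273, with the stop codon, was higher by 0.44, and by 0.41 and 0.47 in the respective lines. The probe at 2762 was higher by 0.18 in low RFI and 0.43 in high RFI pigs. These 3 probes had signals of at least 6.64 times the background.

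The remaining CPT1A probes were dim and had smaller differences. The retained probe at 1374, at 2.35 times background, was higher in HF pigs by 0.10 in the low RFI line and 0.22 in the high RFI line. Of the probes left out by the authors, that at 673 was well above background on all 48 arrays, at 2.21 times background, and was higher by 0.03 and 0.14. The probe at 120 was well above background on 14 arrays only, at 1.47 times background, and was higher by 0.12 and 0.23. The sign was therefore the same in 6 of 6 probes in each line. CPT1A was chosen for this difference on the same arrays, so that the agreement is no independent support. Because no background was subtracted, a dim probe understates a fold change. The dim probes, at 120, 673 and 1374, were also those nearest the start of the transcript. Brightness and position cannot be told apart here. The 4 retained probes correlated with each other across pigs within groups at r of 0.50 to 0.83, as a description.

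**Figure D2:**
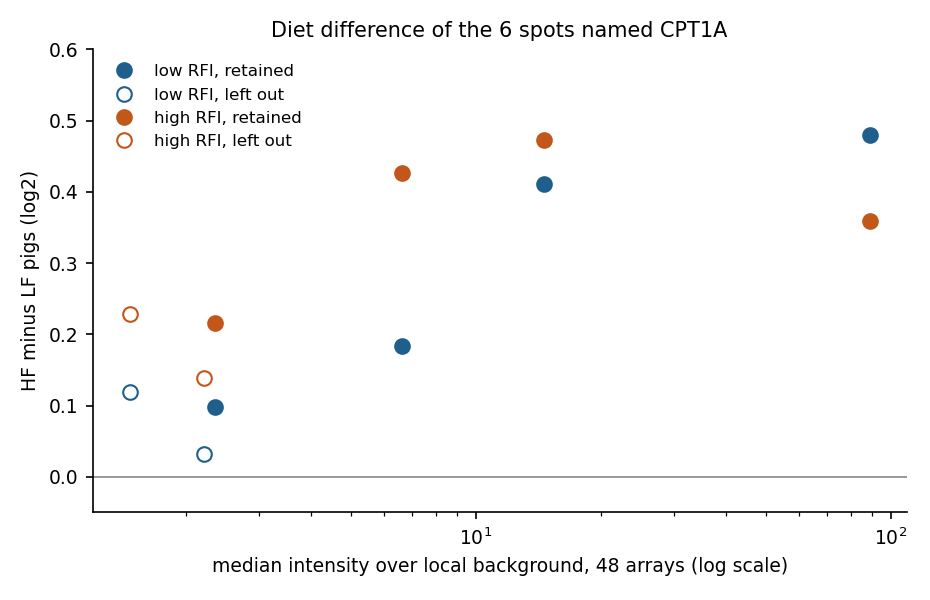
Difference between HF and LF pigs (log2) of each of the 6 CPT1A probes against its signal over the local background (log axis), for each line. Filled points are retained probes and open points are probes left out by the authors. All differences are above 0, and the probes at 1.47 to 2.35 times background have the smaller ones.

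Among the partners of CPT1A in the carnitine shuttle, SLC25A20, the carnitine-acylcarnitine carrier, had the lowest p in HF against LF pigs. Its lowest, median and highest values were -0.56, -0.22 and 0.50 in low RFI LF, -0.67, -0.14 and 0.58 in low RFI HF, -0.63, -0.30 and 0.23 in high RFI LF and -0.48, 0.06 and 0.55 in high RFI HF pigs. The groups overlapped in each line, and 8 of 12 high RFI HF pigs and 7 of 12 low RFI HF pigs were above the median of their LF group. The difference was 0.27 ± 0.13 (SE) in high RFI pigs, with an unadjusted p = 0.042 and an adjusted p = 0.86 by limma, which did not pass the test, and it was positive on 6 of 6 slides. In low RFI pigs it was 0.07, with a 95% interval from -0.19 to 0.33. The interaction was -0.20, with an unadjusted p = 0.28 by limma. With the background-corrected signal the differences were 0.41 in high RFI pigs (unadjusted p = 0.00086, adjusted p = 0.87 by limma) and 0.16 in low RFI pigs, beside 0.41 and 0.33 for CPT1A in that setting, and over 11 alternatives they ranged from 0.20 to 0.45 and from 0.04 to 0.16, with adjusted p of 0.44 or more. Without the rebuilt pig the difference in high RFI pigs was 0.22, with an unadjusted p = 0.093.

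SLC25A20 was read by probes of unequal brightness. The bright one, at 69.5 times background, was higher by 0.30 in high RFI HF pigs, with an unadjusted p = 0.195 and an adjusted p = 0.851 by limma over all spots. The dim one, at 1.61 times background and well above it on 33 of 48 arrays, was higher by 0.24, with an unadjusted p = 0.0085 and an adjusted p = 0.851. The spots of this gene correlated across pigs within groups at only r = 0.15, so that their mean combines unlike readings.

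CPT2, which forms the CoA ester again in the matrix, ranged from -2.05 to -1.48 over the 48 pigs. Its difference between HF and LF pigs was -0.02, with a 95% interval from -0.12 to 0.08, in low RFI pigs. In high RFI pigs the difference rounded to 0.00, with an interval from -0.10 to 0.10. Its 2 spots, at 4.82 and 2.03 times background, correlated within groups at r = -0.27. The upper bounds for CPT2 lie below the differences of CPT1A in the same line, and those of SLC25A20 lie above them. For CPT2 this comparison is limited, because fold changes of dim spots are compressed and its spots did not vary together. CPT1A was also chosen for the size of its difference.

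The enzymes of the oxidation cycle showed no difference between diets that passed the test. ACADVL, the first dehydrogenase for very long chains, ranged from 1.07 to 1.91 and differed by -0.06 in low RFI and -0.04 in high RFI pigs. ACADM, the dehydrogenase for medium chains, ranged from -0.63 to 0.10 and differed by 0.08 and -0.01. ACADM was read by 8 retained spots, of which the brightest differed by 0.06 and -0.06.

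HADHA and HADHB, the alpha and beta subunits of the trifunctional protein, also stayed close to 0. HADHA ranged from -1.24 to -0.42 over the pigs and differed between HF and LF pigs by 0.04 and 0.03 in the low and high RFI lines. HADHB ranged from 1.87 to 3.03 and differed by 0.04 and -0.08. ETFDH passes electrons of the dehydrogenases to ubiquinone. It ranged from -0.30 to 0.76 and differed by 0.05 and -0.02.

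PDK4, the kinase that switches off pyruvate dehydrogenase when fatty acids are the fuel, had the widest spread of the 9 genes. Its lowest, median and highest values were -2.80, -2.19 and -1.20 in low RFI LF, -3.05, -2.23 and -1.41 in low RFI HF, -3.16, -2.35 and -1.33 in high RFI LF and -2.56, -2.10 and -1.37 in high RFI HF pigs. The ranges overlapped almost completely in each line. The difference was -0.13 in low RFI pigs, with a 95% interval from -0.49 to 0.24, and 0.25 in high RFI pigs, with an interval from -0.11 to 0.62. The interaction of -0.38 ± 0.26 (SE) did not pass the test, with an adjusted p = 0.88 by limma. On single slides the difference was positive on 6 of 6 slides in high RFI and on 2 of 6 in low RFI pigs. With the background-corrected signal the values were -0.23 in low RFI, 0.43 in high RFI and -0.66 for the interaction, and over 10 alternatives they ranged from -0.23 to -0.02, from 0.12 to 0.62 and from -0.74 to -0.15, with adjusted p of 0.44 or more.

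The PDK4 reading rests on little signal. Of 11 PDK4 spots 2 were retained, both carried the same 60-base sequence, both were well above background on 47 of 48 arrays, and their signal was 2.21 and 2.33 times background. A left-out spot of another sequence was well above background on 44 arrays, at 1.75 times background. It differed between HF and LF pigs by only -0.07 in low RFI and 0.04 in high RFI pigs. The PPARA probes were dimmer. The 3 PPARA spots, none retained, had signals of 1.06, 1.71 and 1.07 times background, and they were well above background on 0, 39 and 1 of the 48 arrays. PPARA has no gene value and no test because none of its spots was retained. As a description, its spot at 1.71 times background differed between HF and LF pigs by -0.17 in low RFI and 0.19 in high RFI pigs.

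Of the 8 genes tested for diet, 0 passed an adjusted p under 0.05 in either line or over both, where the background over all genes was 0% in each comparison. In low RFI pigs 5 were higher and 3 lower on the HF diet, with a median difference of 0.04, and the median over all genes was 0.01. In high RFI pigs 3 were higher and 5 lower, with a median of -0.01, and the median over all genes was 0.01. An unadjusted p under 0.05 by limma was reached by 0 genes in low RFI and 1 in high RFI pigs, SLC25A20, against 1.66% and 2.72% of all genes. The analysis of variance of each gene, which the methods name, also gave 0 after correction, and before it 0 genes in low RFI and 1 in high RFI pigs, against 1.77% and 2.78% of all genes. Over both lines 5 were higher and 3 lower, with 0 at an unadjusted p under 0.05 against 1.94% of all genes, and every adjusted p was 0.9995. The intervals of the 8 genes reached from -0.49 to 0.33 in low RFI and from -0.27 to 0.62 in high RFI pigs. In low RFI pigs the upper bounds were 0.08 for CPT2, 0.24 for ACADM, 0.12 for ACADVL, 0.20 for HADHA, 0.23 for HADHB, 0.25 for ETFDH, 0.24 for PDK4 and 0.33 for SLC25A20, beside 0.29 for CPT1A. In high RFI pigs they were, in the same order, 0.10, 0.15, 0.14, 0.20, 0.11, 0.19, 0.62 and 0.53, beside 0.37. Only the bounds of SLC25A20 in both lines and of PDK4 in high RFI pigs exceeded the CPT1A difference. On the simulated data the test within the low RFI line recovered 14% of changes of 0.25 and 69.5% of changes of 0.5. The corrected test could therefore miss a rise of the size of CPT1A. These shares hold for 200 genes changed by the same amount, with noise that was independent between genes. Where fewer genes change the correction is stricter, and recovery in the real data can be lower.

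**Figure D3:**
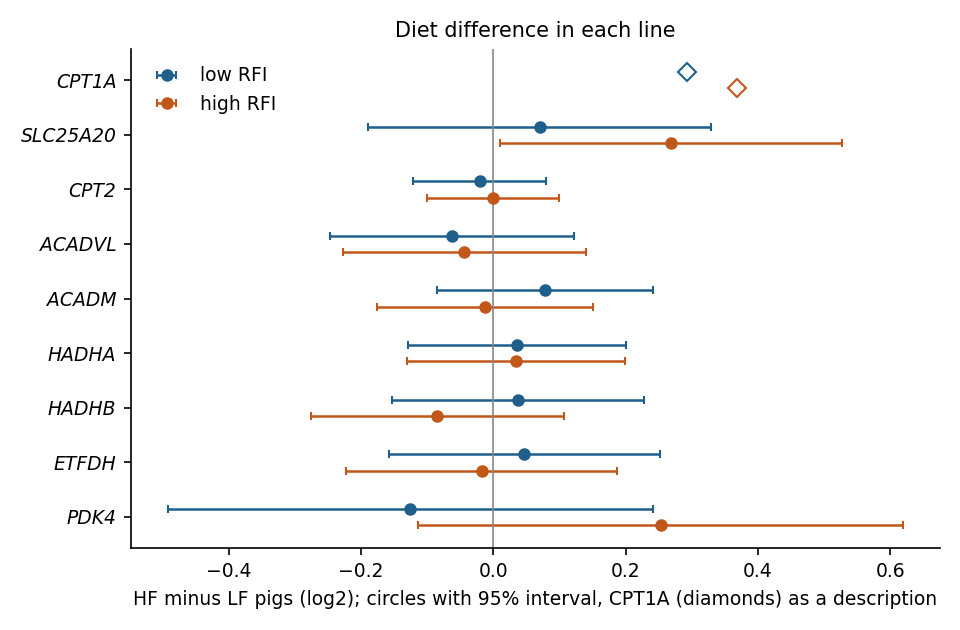
Difference between HF and LF pigs (log2 intensity) in low RFI and high RFI pigs for the 9 measured genes. Circles have 95% confidence intervals from limma, and the open diamonds of CPT1A have none because the gene was chosen for this difference. The intervals of 8 of 8 tested genes in low RFI pigs and of 7 of 8 in high RFI pigs cross 0, the exception being SLC25A20.

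Wider lists of the pathway, with 123 genes listed beside the members and 94 measured, were examined for the same difference. In low RFI pigs 57 were higher and 37 lower on the HF diet, with 0 at an adjusted p under 0.05 (0% of all genes) and 3 (3.19%) at an unadjusted p under 0.05, against 1.66% of all genes. In high RFI pigs 49 were higher and 45 lower, with 0 (0% of all genes) and 6 (6.38%, against 2.72%). Of other PPAR target genes, 18 of 27 were measured. In low RFI pigs 9 of them were higher and 9 lower, with a median of 0.004, and in high RFI pigs 13 were higher and 5 lower, with a median of 0.12. None of these 18 passed the test after correction in either line, and at an unadjusted p under 0.05 there were 1 lower in low RFI and 2 lower in high RFI pigs. Over all genes 53.3% were higher in low RFI and 52.6% in high RFI HF pigs, with a median of 0.01 in each line.

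By role, the other enzymes of beta-oxidation had 14 of 19 genes higher in low RFI HF pigs and 7 of 19 higher in high RFI HF pigs. For uptake and activation of fatty acids these counts were 7 and 7 of 12, for peroxisomal oxidation 7 and 6 of 11, for PPAR receptors and their partners 7 and 6 of 16, and for the control of pyruvate dehydrogenase and malonyl-CoA 13 and 10 of 18. No gene of these lists passed an adjusted p under 0.05 for diet in either line. The medians lay between -0.05 and 0.04, and single genes lay farther out. In the uptake and activation list the differences ran from -0.14 to 0.24 in low RFI and from -0.13 to 0.84 in high RFI pigs. At an unadjusted p under 0.05 by limma, 2 of its 12 genes were higher in high RFI HF pigs, against 2.72% of all genes. Its highest value lay above the 0.37 of CPT1A in that line. For the beta-oxidation enzymes the differences in high RFI pigs ran from -0.22 to 0.38.

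Genes of these lists with an unadjusted p under 0.01 in any comparison, or with the lowest p of their list, had diet differences of either sign. TXNIP, whose product binds thioredoxin and restrains glucose uptake, had a difference of -0.40 ± 0.15 (SE) in low RFI pigs, with an unadjusted p = 0.0091 and an adjusted p = 0.9999 by limma. ACACB, the mitochondrial acetyl-CoA carboxylase whose product malonyl-CoA inhibits CPT1, had a difference of 0.37 ± 0.11 (SE) in high RFI pigs on a single spot, with an unadjusted p = 0.0022 and an adjusted p = 0.86. ABCA1, an exporter of cholesterol, differed by -0.48 ± 0.19 (SE) in high RFI pigs, with an unadjusted p = 0.017. ACSL1, which activates long-chain fatty acids, differed by -0.14 in low RFI and 0.29 in high RFI pigs, with an interaction of -0.43 and an unadjusted p = 0.038. ACOX3, a peroxisomal oxidase, differed by 0.22 and -0.19, and SIRT3, a mitochondrial deacetylase, by 0.20 and -0.09. None of these passed after correction.

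Between the lines, 8 of the 9 measured genes were higher in low RFI pigs, but none passed the test. At an adjusted p under 0.05 limma called 3.29% of all genes for line. The median difference of the 9 genes was 0.05, beside 0.03 over all genes, of which 63.9% were higher in low RFI pigs. CPT1A averaged 0.26 ± 0.29 (SD, n = 24) over the low RFI pigs and 0.11 ± 0.39 (SD, n = 24) over the high RFI pigs, a difference of 0.15 ± 0.09 (SE) with an adjusted p = 0.52. ETFDH differed by 0.14 ± 0.07 (SE), with an adjusted p = 0.40, the lowest of the 9, and 0 of 9 had an unadjusted p under 0.05 against 13.1% of all genes. The brightest CPT1A probe, at 4192, differed by 0.30, with an unadjusted p = 0.009 and an adjusted p = 0.16 over all spots.

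Among the 94 other genes of the lists, 2 (2.13%) passed the test for line, a share below the 3.29% of all genes. ACAA2, a thiolase of mitochondrial beta-oxidation, was higher in low RFI pigs, at -0.17 ± 0.21 (SD, n = 24) against -0.40 ± 0.24 (SD, n = 24), with a difference of 0.23 ± 0.07 (SE) and an adjusted p = 0.044 by limma on 1 spot. ACSL4, which activates polyunsaturated fatty acids, was lower in low RFI pigs, at 3.20 ± 0.27 (SD, n = 24) against 3.51 ± 0.36 (SD, n = 24), with a difference of -0.31 ± 0.09 (SE) and an adjusted p = 0.037 on 8 spots. The ACAA2 call was lost with all non-control spots, at an adjusted p = 0.059, and with the brightest spot of each gene, at 0.050, and both calls were lost with the repeated column as deposited, at 0.87 for ACAA2 and 0.30 for ACSL4. Of the remaining genes, DECR1, needed for unsaturated fatty acids, differed by -0.18 (adjusted p = 0.093), VNN2, a pantetheinase, by -0.35 (adjusted p = 0.10), ACSL1 by -0.27 (adjusted p = 0.14), ABCA1 by 0.38 (adjusted p = 0.14), ACOX3 by 0.21 (adjusted p = 0.14) and SIRT3 by 0.17 (adjusted p = 0.22). At an unadjusted p under 0.05, 14 of the 94 genes (14.9%) differed between lines, near the 13.1% of all genes. On its brightest spot ACSL1 had a line difference of 0.12, with the opposite sign and an adjusted p = 0.93 by limma. Lists of blood cell markers, described below, also held genes that passed for line by limma. Lower in low RFI pigs were 3 of 6 B cell, 2 of 8 mature neutrophil and 1 of 7 monocyte genes. Higher were 1 of 8 T cell and 1 of 11 erythroid genes, and no granule, NK cell or platelet gene passed. The part of these cells in the line differences of ACAA2 and ACSL4 was not tested.

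Whether pigs with more CPT1A RNA also had more of the other transcripts was examined apart from the group differences, with the mean of each group of 12 removed. None of the 8 correlations passed after correction over the 8, by permutation of pigs within groups. The strongest was with HADHA, Pearson's r = 0.30 (permutation p = 0.040, adjusted p = 0.32) and Spearman's rho = 0.24 (permutation p = 0.11, adjusted p = 0.69, n = 48). Without the 2 pigs farthest from the median of CPT1A the r with HADHA fell to 0.14, so that the relation rests on these pigs. Within slides it lay between -0.35 and 0.66 and was positive on 5 of 6 slides.

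The other correlations with CPT1A were 0.20 for ACADM, 0.08 for ACADVL, 0.06 for HADHB, -0.05 for CPT2, -0.09 for PDK4, -0.15 for SLC25A20 and -0.18 for ETFDH, with adjusted permutation p from 0.63 to 0.76. Spearman's rho lay between -0.16 and 0.18 for these, with adjusted permutation p of 0.69 or more. The median r of the 8 was 0.01, and the median over all 10945 other genes was 0.01, with 5% of genes below -0.28 and 5% above 0.30. Within single groups of 12 pigs, 32 correlations were computed and the strongest, HADHA in high RFI HF pigs, had r = 0.62 (permutation p = 0.018, adjusted p = 0.58) and r = 0.12 without 2 pigs.

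Genes whose values followed CPT1A most closely across the 48 pigs, with group means removed, were ST3GAL4, a sialyltransferase, at r = 0.65, PNPLA8, a phospholipase, at 0.60, and CNST, CHIT1 and CAPN10, each at 0.58. At the other end were HSD17B14 and AP3M1 at -0.50, STRN and SCYL3 at -0.49, and LOC100153433 at -0.48. These are the extremes of 10945 genes and are given as a description. None of them is a member of the lists of fatty acid oxidation or PPAR.

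Of the 28 pairs among the other 8 genes, 19 (67.9%) had an adjusted permutation p under 0.05, with 11 positive and 8 negative correlations. Over all pairs of measured genes, 43.7% had an r at least as large in size as the weakest of these, 0.337. Of these calls 3 were lost with the background-corrected signal, 2 with slide means removed (CPT2 with ACADM and with HADHA) and 1 without the 2 farthest pigs (HADHA with HADHB), and 5 other pairs were called with slide means removed. SLC25A20 and PDK4 varied together at r = 0.80 and rho = 0.83 (both permutation p = 1e-05, the smallest that the permutations can give, adjusted p = 3.5e-05, n = 48). This pair kept r = 0.78 without the 2 pigs farthest from the median of SLC25A20, and it lay between 0.70 and 0.96 on the 6 slides. In this pair the bright SLC25A20 spot carried the relation, with r = 0.79 with PDK4, beside 0.28 for the dim spot.

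Some pairs of oxidation enzymes were positive. ACADM and HADHA correlated at r = 0.73 and rho = 0.73, HADHB and ETFDH at 0.64 and 0.60, and ACADVL and HADHB at 0.64 and 0.67 (adjusted permutation p = 3.5e-05 for each). HADHA with ETFDH (r = 0.06, adjusted permutation p = 0.73) and ACADM with ETFDH (r = 0.23, adjusted permutation p = 0.17) did not pass, and with slide means removed the latter passed, at r = 0.48 (adjusted permutation p = 0.0034). PDK4 and SLC25A20 were negative with ACADVL, ACADM, HADHB and ETFDH, and with HADHA, at r = -0.24 and -0.16, they did not pass. With slide means removed these values with HADHA were -0.56 (adjusted permutation p = 0.00042) and -0.46 (adjusted permutation p = 0.0036), and both passed. HADHB and PDK4 had r = -0.76 and rho = -0.76, r = -0.71 without the 2 farthest pigs, and negative values on 6 of 6 slides, from -0.93 to -0.62. PDK4 with ETFDH had r = -0.66, SLC25A20 with ETFDH -0.64, PDK4 with ACADVL -0.62 and SLC25A20 with HADHB -0.62. With the background-corrected signal SLC25A20 with HADHB fell to r = -0.26 (adjusted permutation p = 0.088) and SLC25A20 with ACADVL from -0.53 to -0.15 (adjusted permutation p = 0.34), which ended both calls.

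**Figure D4:**
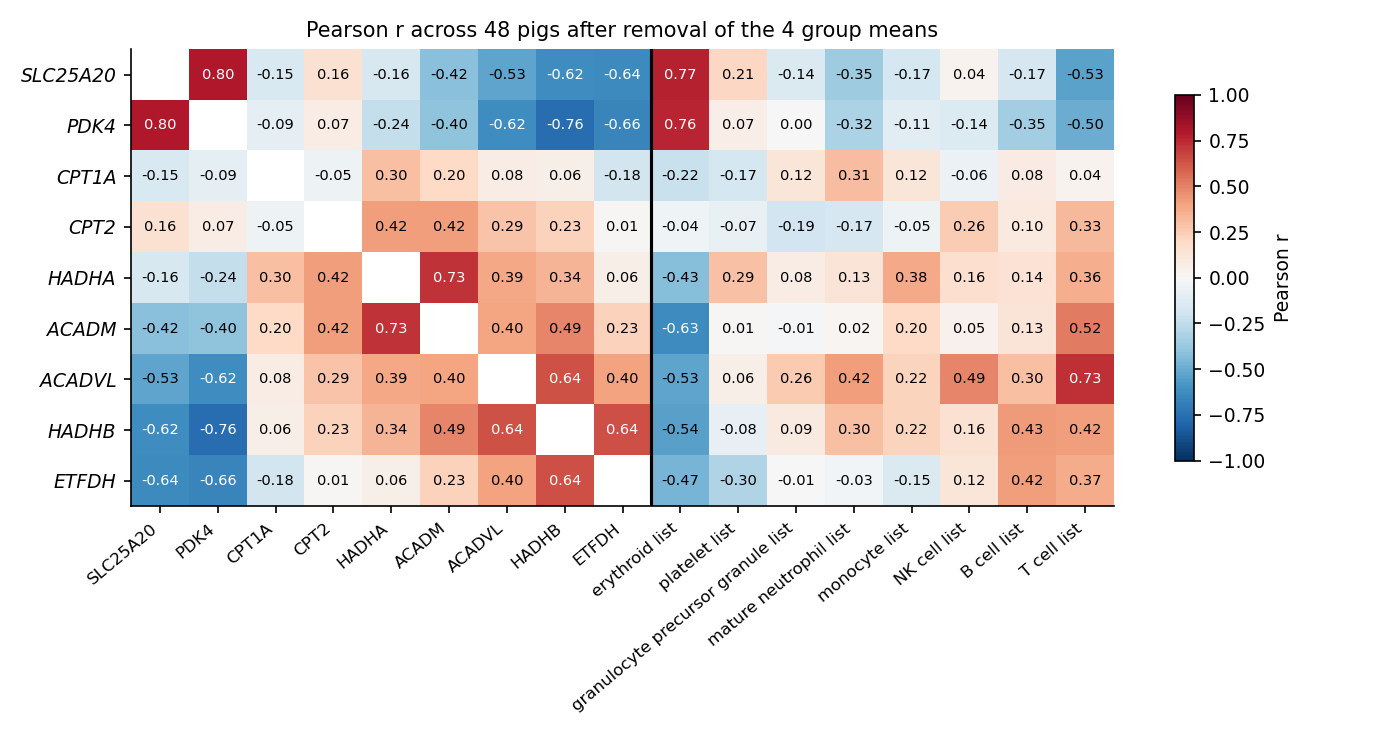
Pearson's r across 48 pigs, with the 4 group means removed, between the 9 measured genes and between each gene and the mean of 8 lists of blood cell markers. The colour scale runs from negative to positive r. SLC25A20 and PDK4 are positive with each other (0.80) and with the erythroid list (0.77 and 0.76), and the row of CPT1A stays between -0.22 and 0.31.

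Whole blood mixes cell types, and in such samples fewer cells of a type and less RNA per cell cannot be told apart from the arrays alone. Blood cells of these pigs were also counted with a cell counter in the study, and those counts were not used here. Lists of marker genes were therefore measured beside the members. The erythroid list had 11 of 16 genes measured, among them HBB, AHSP and ALAS2 well above background on all 48 arrays, and its mean ranged from 2.03 to 3.41 in low RFI LF, 2.06 to 3.25 in low RFI HF, 1.78 to 2.81 in high RFI LF and 2.30 to 3.24 in high RFI HF pigs. Of these 11 genes, 11 were higher in high RFI HF than in high RFI LF pigs, with a median difference of 0.27, and 3 were higher in low RFI HF pigs, with a median of -0.13, where 52.6% and 53.3% of all genes were higher. The study picked EPOR and KLF1 of this list for diet on these arrays, and of the other 9 genes 9 were higher in high RFI and 1 in low RFI HF pigs. No erythroid gene passed the test after correction for diet in either line. The diet differences of PDK4 and of the bright SLC25A20 spot in high RFI pigs stand beside this shift, and its part in them was not tested.

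The relation to the erythroid list was close for the same genes. SLC25A20 had r = 0.77 (rho = 0.80) and PDK4 r = 0.76 (rho = 0.77) with the mean of the list, each with an adjusted permutation p = 2.1e-04 over 64 relations. Within slides the r lay between 0.73 and 0.96 for SLC25A20 and between 0.69 and 0.97 for PDK4. Without the 2 pigs farthest from the median it was 0.78 and 0.75. The bright SLC25A20 spot had r = 0.83 and the dim spot 0.07. Many genes of whole blood lie there, since 7.29% of all genes had a higher r with this list than SLC25A20 and 7.82% a higher r than PDK4.

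The oxidation enzymes went the other way. ACADM had r = -0.63 with the erythroid list (rho = -0.62, adjusted permutation p = 2.6e-04), HADHB -0.54, ACADVL -0.53, ETFDH -0.47 and HADHA -0.43. Without the 2 farthest pigs HADHA fell to -0.28 (adjusted permutation p = 0.17), which ended the call. Of all genes, 7.14% had an r below that of ACADM, 15.1% below HADHB, 17.1% below ACADVL, 23.1% below ETFDH and 27.5% below HADHA. ACADVL correlated with the T cell list at r = 0.73 (rho = 0.71, adjusted permutation p = 2.1e-04), positive on 6 of 6 slides, and 1.01% of all genes had a higher value. SLC25A20 had r = -0.53 and PDK4 -0.50 with that list, values below which 13.9% and 16.7% of all genes lay, and with the background-corrected signal SLC25A20 fell to -0.30 (adjusted permutation p = 0.10). Of the 64 relations, 18 (28.1%) had an adjusted p under 0.05, with 11 positive and 7 negative. Over all genes, 21% of the relations with these lists had an r at least as large in size as the weakest of the 18, 0.375. Without the 2 farthest pigs the calls were 11 (17.2%), and with the replicate block 12 (18.8%), both below that 21%, which was computed over all pigs without the block.

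**Figure D5:**
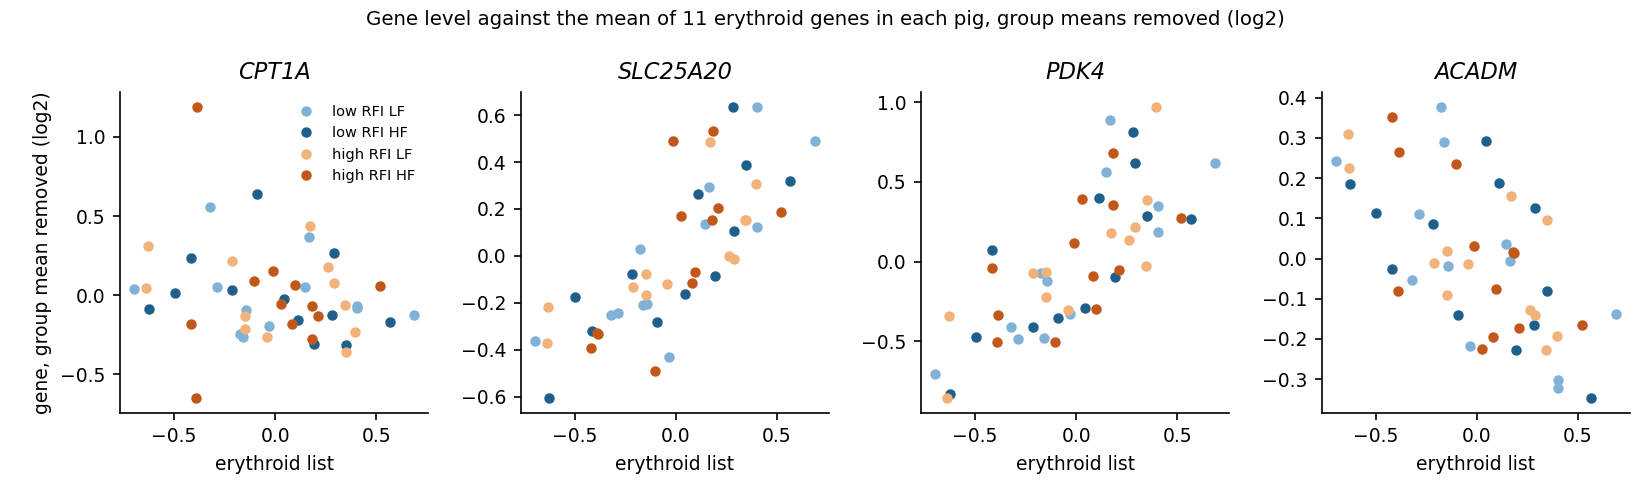
Log2 intensity of CPT1A, SLC25A20, PDK4 and ACADM in each pig against the mean of 11 erythroid genes, both with group means removed. Each point is 1 of 48 pigs. SLC25A20 (r = 0.77) and PDK4 (0.76) rise along the axis, ACADM (-0.63) falls, and CPT1A (-0.22) is scattered.

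CPT1A did not follow any of the 8 lists after correction. Its r was 0.31 with the mature neutrophil list (rho = 0.29, permutation p = 0.041, adjusted p = 0.33), 0.12 without the 2 farthest pigs, and -0.22 with the erythroid list (adjusted permutation p = 0.47). With the brightest CPT1A spot alone, the r with the mature neutrophil list was 0.42 and its adjusted permutation p was 0.034. The mature neutrophil list, with 8 of 10 genes measured, had 8 of 8 genes higher in high RFI HF pigs, with a median difference of 0.25, and 3 of 8 higher in low RFI HF pigs, with a median of -0.12. The mean of the list was 3.57 in LF and 3.48 in HF pigs of the low RFI line, and 3.61 and 4.05 in those of the high RFI line. None of these genes passed after correction for diet in either line, and the part of this list in the CPT1A difference between diets was not tested.

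Of the list of granule genes made in granulocyte precursors, 10 of 14 genes were measured and 0 passed after correction for diet, where limma called 0% of all genes. The study itself picked 6 of the 10, LCN2, PR39, PMAP-23, PGLYRP1, TCN1 and HP, as higher in HF pigs on these same arrays, so their direction is no independent evidence. Among the other 4, LTF, ELANE, CHI3L1 and PRTN3, 4 had a difference above 0 over both lines, with a median of 0.29, and 2 had an unadjusted p under 0.05 by limma, against 1.94% of all genes. The median of these 4 was 0.20 in low RFI and 0.38 in high RFI pigs, and over all 10 genes it was 0.37 and 0.89. The mean of the list ranged from 0.02 to 2.14 in low RFI LF, -0.54 to 2.78 in low RFI HF, -0.78 to 1.34 in high RFI LF and -0.11 to 3.19 in high RFI HF pigs, so that the groups overlapped widely. Within groups its r with CPT1A was 0.12 (rho = 0.09, adjusted permutation p = 0.73). The part of these cells in the CPT1A difference between diets was not tested.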

How the data were processed

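RNA of each pig was labelled with Cy3 and hybridized to 1 Agilent array. The authors deposited, for each array, the spot intensity and quality calls written by the scanner software, and for the 37113 spots that passed their filter a log2 table, made in R 3.0.2 per the labels. On 47 arrays these deposited log2 values equalled the log2 median intensity minus the array median within 1e-06, with no local background subtracted, which compresses the fold changes of dim spots. The remaining column was rebuilt in this way. Of the retained spots 19765 had a gene name, giving 10946 genes. Line, diet and their interaction were fitted with limma 3.58.1 in R 4.3.3 (lmFit, eBayes) on all 48 arrays, with Benjamini-Hochberg adjustment over all genes. Correlations used 100000 permutations of pigs within groups, two-sided, in Python 3.11.15. The fit was tested on simulated data with 200 changed genes. The members and lists were chosen with earlier results of these data known. Named list genes had an unadjusted p under 0.01 in any effect, at most 4 per list, or else the lowest p of the list. Alternatives were other signals, spots, blocks, priors and gene values. Nothing was given on whether pigs shared litters, so p-values measure the spread between pigs.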

Additional observations from a re-analysis of the deposited data

Results flagged for a closer look

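One CPT1A probe outside the deposited table of log2 values, at 673 to 732 of the transcript, was well above background on all 48 arrays, with a median signal of 2.21 times the local background. It is listed here because it holds signal in data that the comparisons did not use. Its difference between HF and LF pigs was 0.09.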

How the results depend on the processing

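The diet difference of CPT1A stayed above 0 in both lines under every alternative, from 0.22 to 0.48 in low RFI and from 0.31 to 0.59 in high RFI pigs, and 0 of the other 8 genes passed an adjusted p under 0.05 for diet in any of them. The count of 94 list genes called for line, 2 as reported, was 1 with all non-control spots, 4 with the replicate block and 0 with the repeated column as deposited. DECR1 passed for line under 4 alternatives, at adjusted p of 0.020 to 0.049, and ACOX3 with the replicate block, at 0.044. The count of 8 marker lists related to CPT1A was 1 with the brightest spot, instead of 0, and of the 64 relations of the other genes with marker lists 11 instead of 18 passed without the 2 farthest pigs. Signs also reversed. With the repeated column as deposited they were diet differences of 0.17 for CPT2 and 0.0103 for ACADVL, differences in high RFI pigs of 0.36 for CPT2, 0.23 for ACADM, 0.0830 for ACADVL and 0.23 for ETFDH, interactions of -0.15 for ACADM, -0.30 for HADHA and -0.18 for ETFDH, and line differences of -0.13 for CPT2, -0.0648 for SLC25A20, -0.0575 for HADHA and -0.17 for PDK4. These follow from 1 value for nearly all genes of 1 pig. With the brightest spot they were -0.00330 for ACADM (diet), -0.0107 for HADHA (high RFI), interactions of 0.12 for CPT1A and 0.0869 for CPT2, a line difference of 0.12 for ACSL1, and r with CPT1A of 0.10 for CPT2 and 0.11 for ETFDH. With all non-control spots, HADHB was -0.0455 in low RFI and 0.0340 in high RFI pigs with an interaction of -0.0796, and the line difference of PDK4 was -0.00250. Without the rebuilt pig, ETFDH in high RFI pigs was 0.00769. With normexp and quantile normalization, the CPT2 interaction was 0.0334 and its r with CPT1A 0.0627. With the background-corrected signal at the 75th percentile, the interaction of ACADVL was 0.00304, the line differences of SLC25A20 and PDK4 were -0.0859 and -0.000353, and the r of CPT2 with CPT1A was 0.0820. Without the 2 pigs farthest from the median of CPT1A, r was 0.14 for CPT2, 0.0236 for PDK4, -0.0258 for monocytes and 0.0748 for NK cells. With the means of the replicate number removed (replicate block), r with T cells was -0.0611. The cause was not tested in the other cases. PDK4 had no value with spots well above background on every array. The labels do not say what a shared replicate number means, and the numbers were not used as a pairing. Of 72 same-number pairs 44 correlated above 0.1 (lowest r -0.62), for 3 of 12 numbers every pair did, 22 of 48 samples were closest to their own number, and the mean r was 0.19 within a number and 0.02 with the other number of the slide. With the replicate block SLC25A20 in high RFI pigs had an adjusted p = 0.72, and 3 of 19 member pairs (CPT2 with ACADM, CPT2 with HADHA, ACADVL with ETFDH) and 6 of 18 relations with marker lists, HADHA with the erythroid list among them (adjusted permutation p = 0.093), lost their call.

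The precision is limited by dim probes (PDK4, CPT2, 1 SLC25A20 spot), by 12 pigs per group and by the mixture of cells in blood.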
